A study of Homo sapiens with 4 samples.

Results

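The protocadherin and cadherin genes described here are the protein-coding genes whose platform symbol begins with PCDH or is CDH followed by a number, read from probe sets that carry a single gene symbol. They number 27, of 7745 protein-coding genes and 15257 single-symbol genes in the table analysed. By location they comprise 16 genes of the PCDHB cluster on chromosome 5, 5 protocadherins outside the clusters (PCDH1, PCDH7, PCDH10, PCDH12 and PCDH18) and 6 CDH genes (CDH6, CDH9, CDH10, CDH12, CDH17 and CDH18). PCDHA genes contributed 0 members, because the only probe set naming them carried 16 symbols at once. PCDHG genes also contributed 0 members, but for another reason: no probe set analysed, with 1 symbol or several, named a coding PCDHG gene. The single-symbol probe sets of that cluster named only the pseudogenes PCDHGB8P and PCDHGB9P. The chromosome 5 clusters hold 15 PCDHA, 16 PCDHB and 22 PCDHG protein-coding genes in RefSeq, so only the PCDHB cluster is seen gene by gene. The table covers chromosomes 1 to 8 and some probe sets of chromosome 9, and cadherins encoded elsewhere, among them CDH1 and CDH2, were not analysed here.

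RNA came from LN229, a human glioblastoma cell line, in 4 samples with 1 sample in each group: polysomal RNA of cells given 5 µM ATO for 6 h, polysomal RNA of untreated cells, total RNA of ATO cells and total RNA of untreated cells. The labels do not spell out ATO, which commonly stands for arsenic trioxide. The lysis buffer was hypotonic and contained cycloheximide, a drug that stalls ribosomes, and polysomal RNA is RNA that sediments with several ribosomes. There was no replicate, hence no error, test or p-value for any difference below, and the number of arrays limits precision. The series' design text describes technical triplicates that were pooled, and it takes 1.5-fold as the threshold for polysomal enrichment, which is used here too.

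Cadherins are calcium-dependent adhesion proteins built from repeated extracellular cadherin domains, and the classical members are tied to actin through catenins. Clustered protocadherins are best known in neurons, where each cell uses a subset of promoters and the resulting surface proteins help neurites tell self from non-self. A PCDHB gene has its own promoter and encodes its protein in a single exon, whereas PCDHA and PCDHG variable exons are spliced to constant exons shared along the cluster. Promoters of most clustered genes are known for a conserved element with a CGCT core and for binding of CTCF and cohesin.

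Promoter sequences are shown first, because the PCDHB genes share an element that the choice by symbol did not use. RefSeq windows (GRCh38.p14) running from 250 bases before to 50 after an annotated start were matched to 22 of the 27 genes, including 14 PCDHB genes. The others were CDH6, CDH17, PCDHB11, PCDHB6 and PCDH10. The search took the 9-letter word present in most PCDHB windows, which was GGTGGCGCT, in 13 of 14 windows and always on the gene's own strand. Since the word was chosen on these windows, its frequency in them is a description. Counting both strands, the word occurs in 0.619% of 27305 genes with a window, in 0 of 13 PCDHA genes, in 0 of 20 PCDHG genes and in 0 of 8 other cadherin and protocadherin genes described here. It contains the 4 letters CGCT. Counted anywhere in the window on the gene's strand, these occur in 14 of 14 PCDHB, 12 of 13 PCDHA and 20 of 20 PCDHG genes, against 57.7% of all genes. PCDHB1 lacks the exact word and holds GGTGGTGCT as its closest match, with the substitution C6T, where position 1 is the first base of the word at its 5′ end and the word's base is written first. That variant, which lacks CGCT, is found on either strand in 0.487% of genes. The CGCT counted for PCDHB1 lies elsewhere in its window. In the following stretches of 41 bases, all on the plus strand of GRCh38.p14, capitals mark the word or, for PCDHB1, its closest match.
PCDHB1 (chr5:141051332-141051372): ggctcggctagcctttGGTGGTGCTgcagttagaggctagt
PCDHB2 (chr5:141094539-141094579): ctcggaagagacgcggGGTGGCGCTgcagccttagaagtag
PCDHB3 (chr5:141100388-141100428): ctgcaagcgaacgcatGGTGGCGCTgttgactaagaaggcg
PCDHB4 (chr5:141121718-141121758): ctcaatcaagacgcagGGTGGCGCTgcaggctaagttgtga
PCDHB5 (chr5:141135174-141135214): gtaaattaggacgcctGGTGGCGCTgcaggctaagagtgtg
PCDHB7 (chr5:141172561-141172601): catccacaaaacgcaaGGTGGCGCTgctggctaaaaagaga
PCDHB8 (chr5:141177772-141177812): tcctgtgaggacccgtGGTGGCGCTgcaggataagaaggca
PCDHB16 (chr5:141182305-141182345): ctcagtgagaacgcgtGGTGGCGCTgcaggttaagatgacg
PCDHB9 (chr5:141187069-141187109): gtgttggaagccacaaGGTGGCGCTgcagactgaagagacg
PCDHB10 (chr5:141192294-141192334): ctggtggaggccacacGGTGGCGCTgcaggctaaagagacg
PCDHB12 (chr5:141208638-141208678): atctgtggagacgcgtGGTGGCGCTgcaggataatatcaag
PCDHB13 (chr5:141213860-141213900): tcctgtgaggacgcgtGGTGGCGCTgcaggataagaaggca
PCDHB14 (chr5:141223258-141223298): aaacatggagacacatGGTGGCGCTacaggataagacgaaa
PCDHB15 (chr5:141245309-141245349): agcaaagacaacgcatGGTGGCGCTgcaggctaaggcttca
After the word, 10 of the 13 genes go on with GCAG. Relative to the annotated start, the first base of the word lies between position -84 (PCDHB4) and position -2 (PCDHB8). Among the 91 pairs of these stretches, identity had a median of 63.4% and ranged between 39.0% and 97.6%. The stretches were cut around the word, so its 9 bases, all but 1 for PCDHB1, match by construction and raise these values. The closest pair was PCDHB8 and PCDHB13, which differ at 1 of 41 bases, followed by PCDHB9 and PCDHB10 at 6. PCDHB genes are close paralogs, so probes of one may also read another, and their separate values are uncertain to that extent.

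Whole windows are given for PCDHB16, which carries the word, and PCDHB1, which does not. Both lie on the plus strand of GRCh38.p14, and capitals mark the same bases as above.
PCDHB16 (chr5:141182137-141182436): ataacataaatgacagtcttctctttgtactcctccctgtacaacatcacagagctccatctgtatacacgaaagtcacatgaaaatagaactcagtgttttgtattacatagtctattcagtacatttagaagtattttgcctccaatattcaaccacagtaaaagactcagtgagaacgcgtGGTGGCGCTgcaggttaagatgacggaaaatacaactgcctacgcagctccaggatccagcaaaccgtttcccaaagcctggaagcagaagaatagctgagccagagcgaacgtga
PCDHB1 (chr5:141051124-141051423): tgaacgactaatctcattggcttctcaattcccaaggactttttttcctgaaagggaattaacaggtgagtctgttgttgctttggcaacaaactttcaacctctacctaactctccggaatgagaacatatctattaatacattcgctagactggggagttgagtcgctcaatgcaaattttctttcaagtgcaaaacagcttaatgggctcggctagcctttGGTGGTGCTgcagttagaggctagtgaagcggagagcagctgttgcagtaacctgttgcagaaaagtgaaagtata
The GC content of the 14 PCDHB windows ranged between 33.3% and 46.3%, with a median of 40.8%, against a median of 58.7% over all windows. A shared word is a description of sequence and no evidence of use in these cells.

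Values are on the deposited log2 scale. As 406 of 65528 probe sets had values over 16, more than a 16-bit scanner can give as plain log2 intensity, folds hold for the deposited scale only. A probe set's value depends on its probes as well as on RNA, so values are compared between samples and not between genes. The level filter was the median of the protein-coding genes' 4-sample means, 7.80, which 3874 coding genes reached. Of the 27 genes 17 passed: 11 PCDHB genes, PCDH1, PCDH7, PCDH10, PCDH18, CDH12 and CDH18. PCDHB14, with a mean of 7.87, lay just inside the filter, and PCDHB10, with 7.7975, just outside.

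Sample checks covered the label conflict and markers of cell types. For ATO total RNA the title, which set its group, and the source name, which reads polysomal, conflict. Its Pearson correlation over all probe sets was 0.991 with untreated total RNA and 0.987 with ATO polysomal RNA, and with 1 sample per group no ATO value of total RNA could be recomputed without it. Of the markers chosen for a glioma line, 6 of 6 passed the filter (EGFR, SPARC, FN1, CAV1, SOX2 and PDGFRA). Among markers of other cell types, 0 of 2 epithelial, 0 of 2 endothelial and 0 of 2 blood genes passed, as did 1 of 4 neuron genes (GAD1, mean 9.23). The epithelial ESRP1 (7.46) and the endothelial EMCN (7.27) lay not far below the filter. As 3874 of 7745 coding genes passed it, these counts are coarse and do not identify the line.

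**Figure D1:**
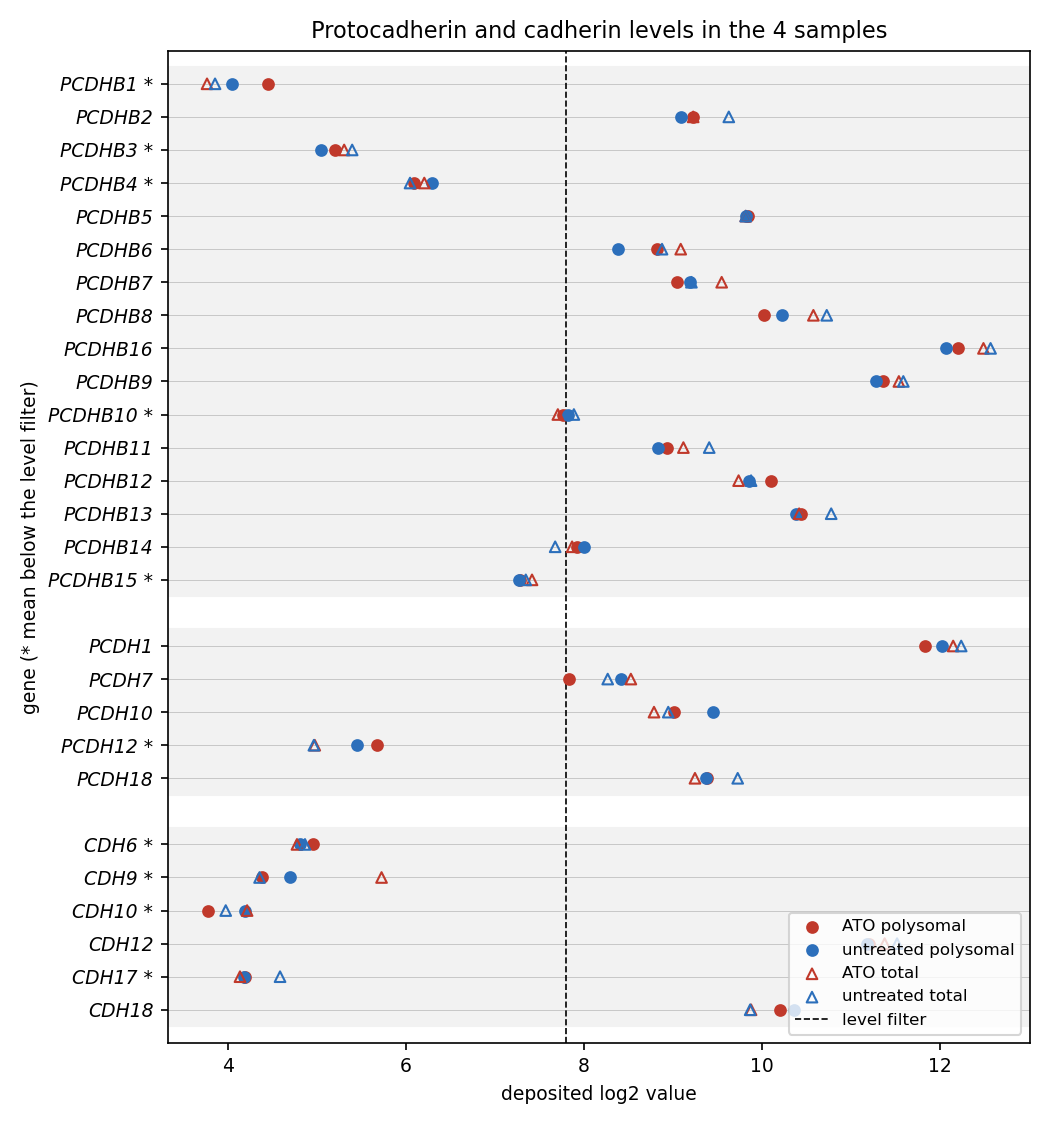
Deposited log2 values (x axis) of the 27 genes (rows) in ATO polysomal, untreated polysomal, ATO total and untreated total RNA, with 1 point per sample. PCDHB genes are in order along their cluster, the dashed line is the level filter at 7.80, asterisks mark genes below it, and the point farthest from the rest of its gene's is CDH9 in ATO total RNA (5.73).

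Over the 4 samples the range of a PCDHB gene past the filter lay between 0.03 and 0.71 log2 units. PCDHB5 had the narrowest, at 9.85 in ATO polysomal, 9.82 in untreated polysomal, 9.82 in ATO total and 9.82 in untreated total RNA. The widest, 0.71, belonged to PCDHB6 and PCDHB8 and exceeds 1.5-fold. PCDHB16 measured 12.20 in ATO polysomal, 12.07 in untreated polysomal, 12.49 in ATO total and 12.57 in untreated total RNA. Both of its polysomal values lay below both of its total values. PCDHB9 had the same arrangement, at 11.36 in ATO polysomal, 11.28 in untreated polysomal, 11.54 in ATO total and 11.59 in untreated total RNA. PCDHB8 measured 10.02 in ATO polysomal, 10.23 in untreated polysomal, 10.58 in ATO total and 10.73 in untreated total RNA, again with polysomal below total throughout.

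PCDHB13 differed in that untreated total RNA stood alone. Its values were 10.44 in ATO polysomal, 10.39 in untreated polysomal, 10.42 in ATO total and 10.78 in untreated total RNA. PCDHB2 gave 9.23 in ATO polysomal, 9.09 in untreated polysomal, 9.23 in ATO total and 9.63 in untreated total RNA, so untreated total RNA was again the highest. For PCDHB11 the values were 8.94 in ATO polysomal, 8.84 in untreated polysomal, 9.12 in ATO total and 9.41 in untreated total RNA, with both polysomal values lowest. In PCDHB6, whose values were 8.82 in ATO polysomal, 8.38 in untreated polysomal, 9.09 in ATO total and 8.88 in untreated total RNA, the lowest sample was untreated polysomal.

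PCDHB12 and PCDHB14 had no such polysomal deficit in both states. PCDHB12 was 10.10 in ATO polysomal, 9.86 in untreated polysomal, 9.74 in ATO total and 9.88 in untreated total RNA, highest in ATO polysomal RNA. PCDHB14 was 7.92 in ATO polysomal, 8.0 in untreated polysomal, 7.87 in ATO total and 7.68 in untreated total RNA, highest in untreated polysomal RNA. PCDHB7, at 9.05 in ATO polysomal, 9.19 in untreated polysomal, 9.55 in ATO total and 9.21 in untreated total RNA, was highest in ATO total RNA.

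Below the filter were PCDHB10, PCDHB15, PCDHB4, PCDHB3 and PCDHB1. PCDHB10 ranged between 7.71 and 7.89 and PCDHB15 between 7.27 and 7.42 over the 4 samples. PCDHB4 ranged between 6.05 and 6.30 and PCDHB3 between 5.05 and 5.40. PCDHB1 had 4.46 in ATO polysomal, 4.05 in untreated polysomal, 3.77 in ATO total and 3.86 in untreated total RNA. The probe set naming 16 PCDHA symbols measured 5.05 in ATO polysomal, 5.22 in untreated polysomal, 5.14 in ATO total and 5.39 in untreated total RNA. That probe set is no member and cannot be assigned to 1 PCDHA gene.

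Polysomal RNA was then compared with total RNA, the comparison that the fractionation was made for. Most PCDHB genes past the filter lay low on polysomes relative to other coding genes in both treatment states. Over the 11 PCDHB genes past the filter the median log2 difference, polysomal minus total, was -0.18 in ATO cells and -0.39 in untreated cells. Over all 3874 coding genes past the filter the median was 0.17 in ATO cells and 0.19 in untreated cells. Of the 11 genes, 10 lay below that median in ATO cells, with PCDHB12 (0.36) as the exception, and 10 in untreated cells, with PCDHB14 (0.32) as the exception. Polysomal values were below total in both states for 6 of the 11 (54.5%), against 23.9% of all coding genes, and above in both for 1, PCDHB14, against 57.9%. These shares describe 1 sample per group and carry no test. As close paralogs whose probes may read one another, the 11 genes are not separate observations. The ATO values also use the total RNA sample whose title and source name conflict. Of the pseudogenes left out, PCDHB17P lay above both coding medians (0.32 in ATO, 0.33 in untreated cells), and PCDHB18P lay near 0 (-0.09 and 0.05). The PCDHB medians depend on which dim genes enter: with no filter (16 genes) they were -0.105 in ATO and -0.195 in untreated cells, against coding medians of 0.12 in both. With probe sets averaged per gene, which lowers the filter and adds 1 gene, they were -0.09 in ATO and -0.35 in untreated cells.

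Few individual genes crossed 1.5-fold. In ATO cells 1 of the 17 genes past the filter was over 1.5-fold lower, PCDH7, where 3.92% of coding genes were lower. None of the 17 was over 1.5-fold higher in ATO cells, where 14.7% of coding genes were higher. In untreated cells 0 of 17 were lower, against 4.72% of coding genes, and 0 of 17 higher, against 16.2%. Just inside the threshold of 0.585 log2 units was PCDH7 in ATO cells (-0.69), and just outside were PCDHB11 in untreated cells (-0.57) and PCDHB8 in ATO cells (-0.56).

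Ranked by the smaller of the ATO and untreated differences where both were below 0, the PCDHB genes farthest from 0 were PCDHB8 (-0.56 in ATO, -0.50 in untreated cells), PCDHB16 (-0.29 and -0.50) and PCDHB6 (-0.27 and -0.50). PCDHB11, lowest of the PCDHB genes in untreated cells, was 1.13-fold lower on polysomes in ATO cells and 1.48-fold lower in untreated cells. PCDHB9 (-0.18 in ATO, -0.31 in untreated cells) and PCDHB7 (-0.50 and -0.02) were the other PCDHB genes below 0 in both states. PCDHB2 and PCDHB13 were low in untreated cells, at -0.54 and -0.39, and close to 0 in ATO cells, at 0.00 and 0.02.

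Subtracting a loess trend on mean level sets each gene against genes of similar level. On that scale 3 of 17 genes were over 1.5-fold lower in ATO cells (PCDH7, PCDHB8 and PCDHB7) and 5 of 17 in untreated cells (PCDHB11, PCDHB16, PCDHB2, PCDHB8 and PCDHB6). The shares of coding genes over 1.5-fold lower after the subtraction were 8.47% in ATO cells and 9.63% in untreated cells. The PCDHB median minus the coding median was -0.35 without and -0.32 with the subtraction in ATO cells, and -0.58 in both cases in untreated cells.

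**Figure D2:**
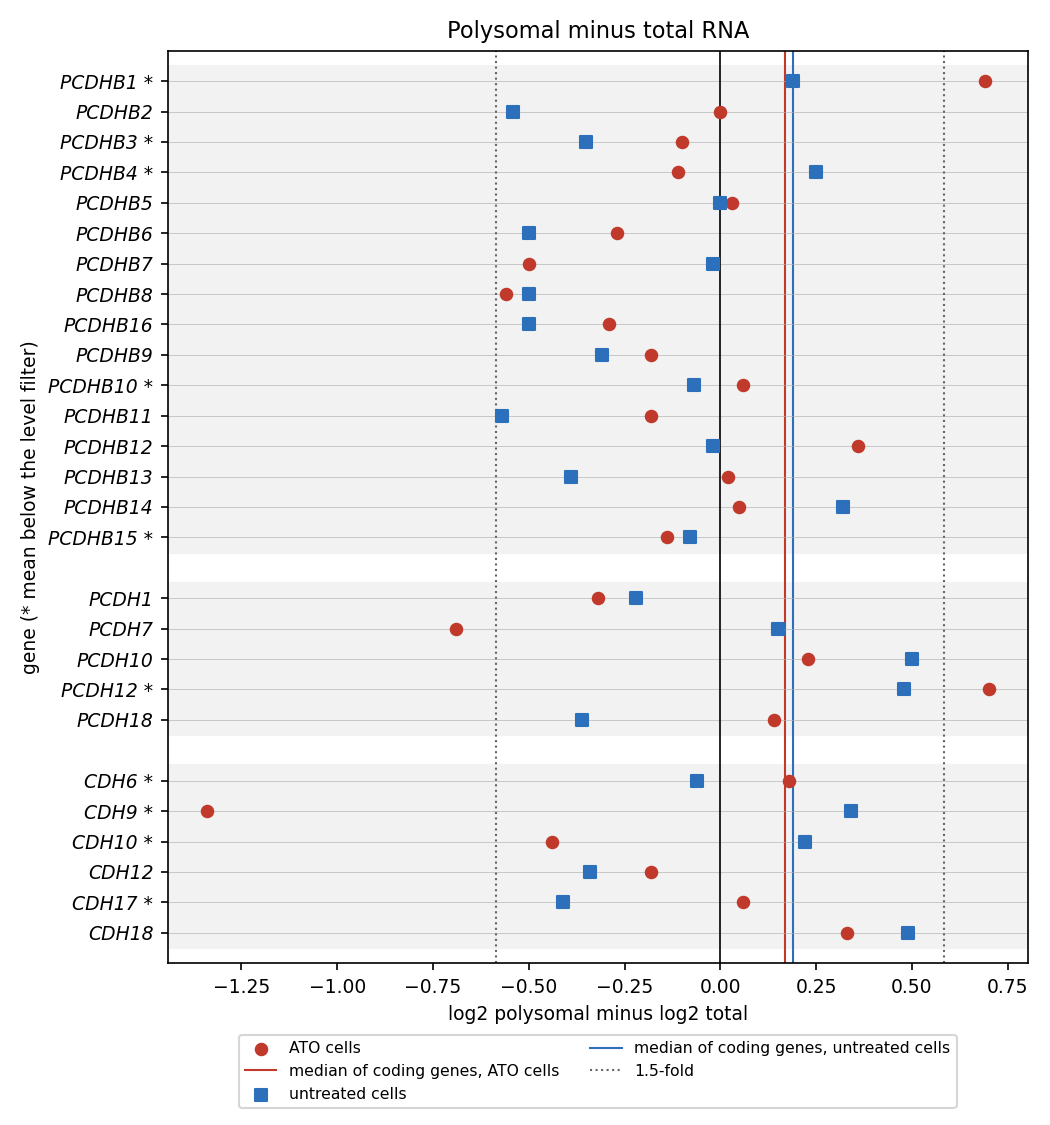
Log2 polysomal minus log2 total (x axis) for each of the 27 genes, with a circle for ATO cells and a square for untreated cells, coloured vertical lines at the medians of coding genes past the filter (0.17 and 0.19) and dotted lines at 1.5-fold. Most PCDHB symbols lie left of the medians, and CDH9 in ATO cells (-1.34) is the leftmost point.

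**Figure D3:**
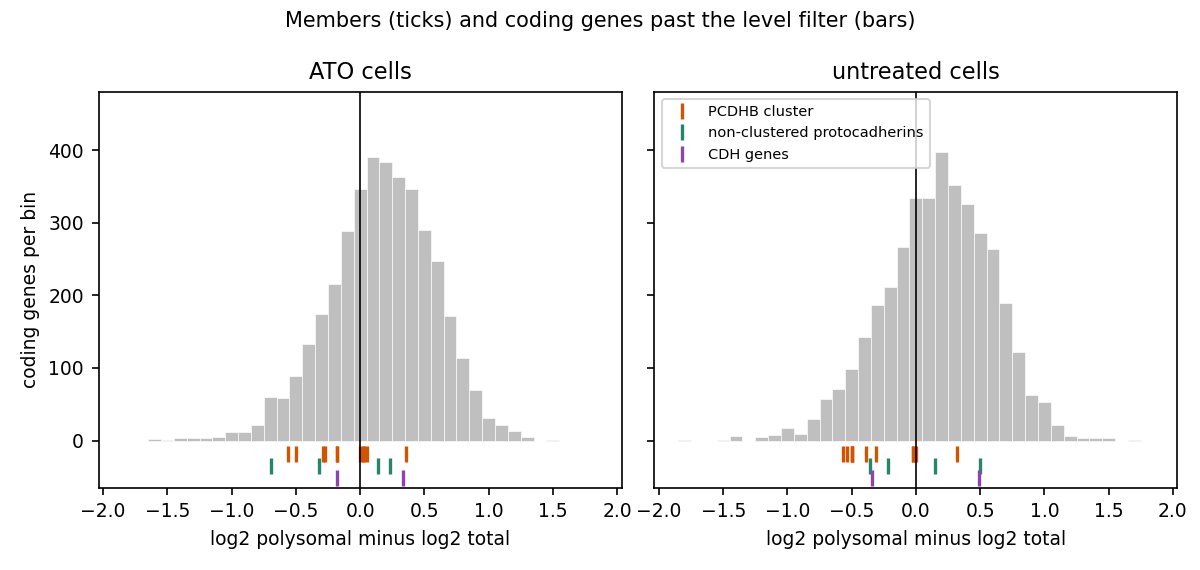
Number of coding genes past the level filter (y axis, bars) by log2 polysomal minus log2 total (x axis, bins of 0.1) in ATO cells (left) and untreated cells (right), with ticks below the bars for the 11 PCDHB genes, 4 other protocadherins and 2 CDH genes past the filter. The PCDHB ticks lie mainly in the lower part of the bars, with medians of -0.18 and -0.39.

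Protocadherins outside the clusters did not share a direction relative to 0. Against the coding median, 3 of the 4 past the filter lay below it in ATO cells and 3 of 4 in untreated cells. Over all 17 genes past the filter 14 lay below the coding median in each state, so a low position was not confined to PCDHB genes. PCDH1, a protocadherin known from airway epithelium, measured 11.83 in ATO polysomal, 12.02 in untreated polysomal, 12.15 in ATO total and 12.24 in untreated total RNA. It was lower on polysomes in both states, by -0.32 and -0.22. PCDH10, a brain protocadherin known to recruit the actin-regulating WAVE complex, measured 9.02 in ATO polysomal, 9.45 in untreated polysomal, 8.79 in ATO total and 8.95 in untreated total RNA. It was higher on polysomes in both states, by 0.23 in ATO and 0.50 in untreated cells. PCDH18 gave 9.39 in ATO polysomal, 9.37 in untreated polysomal, 9.25 in ATO total and 9.73 in untreated total RNA, so the sign differed between states (0.14 in ATO, -0.36 in untreated cells). PCDH7 gave 7.84 in ATO polysomal, 8.42 in untreated polysomal, 8.53 in ATO total and 8.27 in untreated total RNA. It was 1.61-fold lower on polysomes in ATO cells and 1.11-fold higher in untreated cells. The values above 0 of PCDH18 in ATO cells (0.14) and of PCDH7 in untreated cells (0.15) lay below the coding medians, 0.17 and 0.19. PCDH12, known from endothelium, was below the filter, with 5.68 in ATO polysomal, 5.45 in untreated polysomal, 4.98 in ATO total and 4.97 in untreated total RNA.

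The CDH genes past the filter were CDH12 and CDH18, both type II cadherins known from brain, and they lay on opposite sides of 0. CDH12 measured 11.20 in ATO polysomal, 11.18 in untreated polysomal, 11.38 in ATO total and 11.52 in untreated total RNA, and its polysomal values were the lower ones (-0.18 in ATO, -0.34 in untreated cells). CDH18 measured 10.21 in ATO polysomal, 10.36 in untreated polysomal, 9.88 in ATO total and 9.87 in untreated total RNA, and its polysomal values were the higher ones (0.33 and 0.49). The type II cadherin CDH6 ranged between 4.78 and 4.96, CDH10, of the same class, between 3.78 and 4.22, and the intestinal cadherin CDH17 between 4.14 and 4.59, all below the filter. CDH9, another type II cadherin, measured 4.39 in ATO polysomal, 4.70 in untreated polysomal, 5.73 in ATO total and 4.36 in untreated total RNA, with ATO total RNA alone above 5.

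ATO was compared with untreated cells in each fraction, where total RNA gives abundance. In total RNA 0 of the 17 genes past the filter were over 1.5-fold higher, against 0.103% of coding genes, and 0 lower, against 0.361%. The median of the 17 was -0.09, and that of coding genes -0.02. PCDH18 (-0.48), PCDHB2 (-0.40) and PCDHB13 (-0.36) lay lowest, and PCDHB7 (0.34) and PCDH7 (0.26) highest. In polysomal RNA 0 of 17 were over 1.5-fold higher, against 0.258% of coding genes, and 0 lower, against 0.878%, although PCDH7, at -0.58, lay just outside the threshold. The median of the 17 in polysomal RNA was 0.02, against -0.02 for coding genes. PCDHB6 (0.44) lay highest there, and PCDH10 (-0.43) was lowest after PCDH7. A difference in bulk RNA does not tell fewer cells carrying a transcript apart from less of it per cell.

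**Figure D4:**
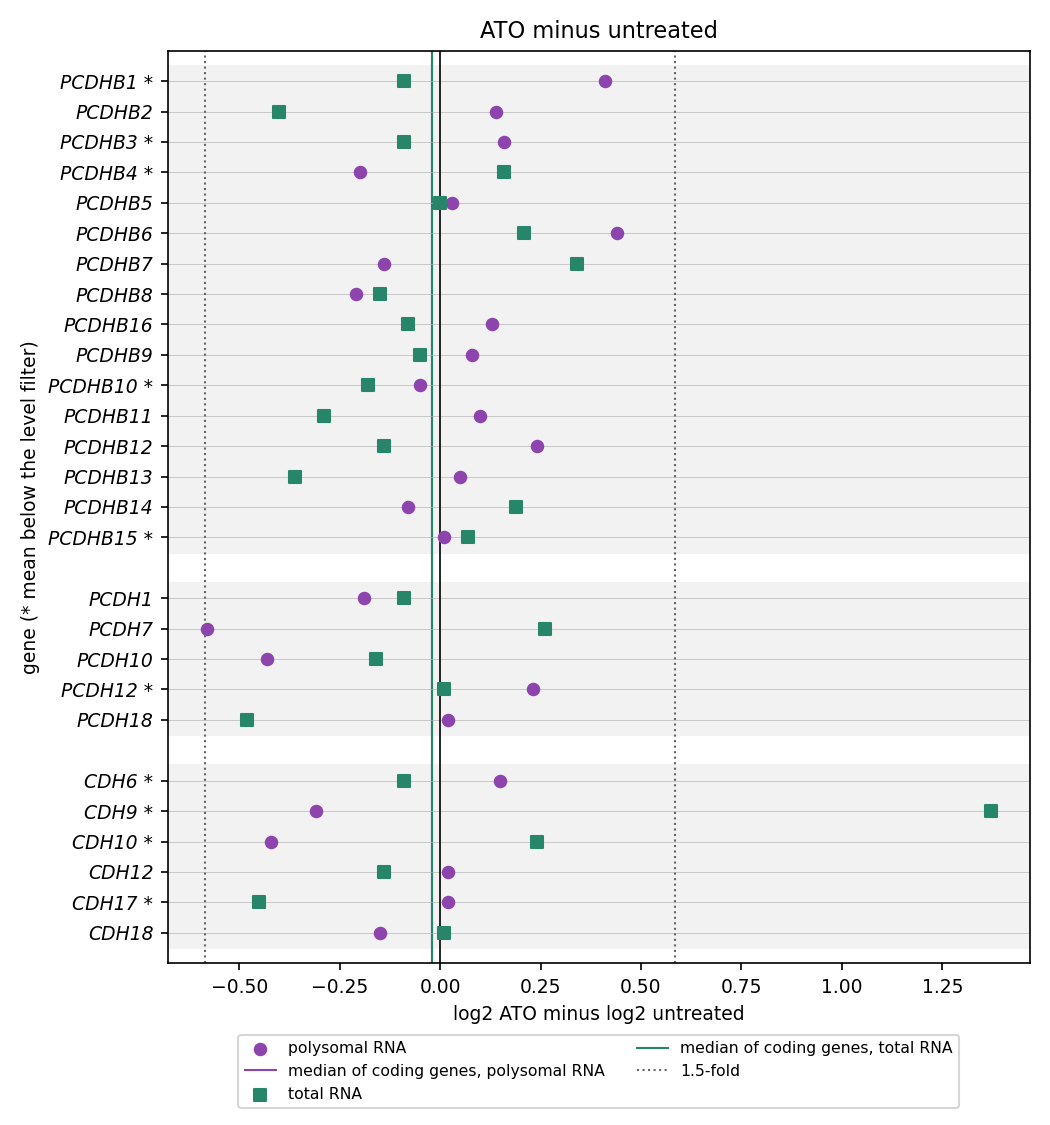
Log2 ATO minus log2 untreated (x axis) for each of the 27 genes, with a circle for polysomal RNA and a square for total RNA, coloured vertical lines at the medians of coding genes past the filter (-0.02 in both fractions) and dotted lines at 1.5-fold. Symbols lie between the dotted lines except CDH9 in total RNA (1.37), and PCDH7 in polysomal RNA (-0.58) is close to one.

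The series set polysomal enrichment in ATO cells beside that in untreated cells, and the difference of the polysomal/total log2 ratio, ATO minus untreated, bears on it. Of the 17 genes past the filter 1 was over 1.5-fold lower, PCDH7 at -0.84, where 2.01% of coding genes were lower, and 0 were higher, where 1.6% were. PCDHB genes had a median of 0.21 over the 11 past the filter, with 8 above 0, and coding genes a median of 0.00 with 49.6% above 0. PCDHB2 (0.54), PCDH18 (0.50), PCDHB13 (0.41), PCDHB11 (0.39) and PCDHB12 (0.38) lay highest. PCDHB7 (-0.48), PCDH10 (-0.27) and PCDHB14 (-0.27) were lowest after PCDH7, followed by CDH18 (-0.16). For PCDHB2 and PCDHB13 the ATO and untreated polysomal values differed by 0.14 and 0.05, while their total values differed by -0.40 and -0.36, ATO minus untreated. All 4 samples enter this difference, and no error can be attached to it.

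The 10 genes below the filter give dim values, and their differences are read against the 3871 coding genes below it. For polysomal against total RNA in ATO cells 2 of the 10 were over 1.5-fold higher, PCDH12 (0.70) and PCDHB1 (0.69), where 4.75% of those coding genes were. CDH9 was the 1 gene lower in that comparison, 2.53-fold, where 1.65% were. In untreated cells 0 of 10 were higher, against 4.8%, and 0 lower, against 1.47%. CDH9 was also the 1 gene over 1.5-fold apart between ATO and untreated total RNA, 2.58-fold higher, where 1.73% were higher, and 0 of 10 were lower, where 1.76% were. In polysomal RNA 0 of 10 were higher with ATO, against 1.39%, and 0 lower, against 2.09%. For the ratio difference 2 of 10 were lower, CDH9 (-1.68) and CDH10 (-0.66), where 6.02% were, and 0 were higher, where 6.25% were. The 3 CDH9 differences rest on its single value in ATO total RNA.

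Other genes of cadherin adhesion were described from lists, with no test. Of 10 other cadherin-repeat genes measured, 2 passed the filter, and these crossed 1.5-fold in 0 of the 5 comparisons. They were FAT1, a giant protocadherin-like receptor (polysomal minus total -0.07 in ATO, -0.15 in untreated cells), and the calsyntenin CLSTN1 (-0.37 and -0.24). Over coding genes past the filter, 3.92% were over 1.5-fold lower on polysomes and 14.7% higher in ATO cells. In untreated cells these shares were 4.72% and 16.2%. Of 9 catenins and junction partners measured, 7 passed. The catenins CTNNA1 (-0.67 in ATO, -0.96 in untreated cells) and CTNNB1 (-0.69 and -0.56), which link classical cadherins to actin, were low on polysomes, whereas CTNNBIP1, an inhibitor of CTNNB1, was high (0.61 and 0.52). In that list 2 of 7 genes were over 1.5-fold lower in ATO cells, where 3.92% of coding genes past the filter were, and 1 of 7 in untreated cells, where 4.72% were. Higher were 1 of 7 in ATO cells, against 14.7%, and 0 of 7 in untreated cells, against 16.2%. Junction genes nearer 0 were AFDN (0.03 and -0.36), NECTIN3 (-0.02 and -0.05), PTPRK (-0.30 and -0.16) and PTPRF (0.20 and 0.02).

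Of 7 WAVE-complex and kinase genes measured, 5 passed. Over 1.5-fold lower on polysomes in ATO cells was 1 of these 5, where 3.92% of coding genes past the filter were. It was the focal adhesion kinase PTK2 (-0.63, against -0.25 in untreated cells). The others were NCKAP1 (0.05 and 0.09), WASF2 (-0.08 and 0.25), BRK1 (0.40 and -0.09) and FYN (0.09 and 0.31). Of 10 listed factors that act on the clusters' chromatin, 4 were measured, and CTCF and RAD21 were among those not measured. All 4 passed, and the cohesin loader NIPBL was low (-0.52 in ATO, -0.62 in untreated cells). It was the 1 of these 4 over 1.5-fold lower in untreated cells, where 4.72% of coding genes past the filter were. STAG1 of cohesin (0.16 and 0.24), the histone methyltransferase SETDB1 (0.02 and -0.06) and the DNA methyltransferase DNMT3A (-0.12 and -0.38) did not cross 1.5-fold. None of the 4 shedding and gamma-secretase genes past the filter (NCSTN, APH1A, ADAM9 and ADAM17) and none of the 5 cadherin-switch transcription factors (SNAI2, ZEB2, TWIST1, TWIST2 and PRRX1) crossed it in either state. Among coding genes past the filter 3.92% were lower and 14.7% higher in ATO cells, and 4.72% and 16.2% in untreated cells. In the comparison of ATO with untreated cells, no gene past the filter in these 6 lists crossed 1.5-fold in either fraction or in the ratio difference. Shares of coding genes past the filter over 1.5-fold higher and lower were 0.258% and 0.878% in polysomal RNA. They were 0.103% and 0.361% in total RNA, and 1.6% and 2.01% for the ratio difference.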

How the data were processed

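Array expression was measured in 4 samples, 1 per group. Per the labels' protocols, a sucrose gradient isolated polysomal RNA, and both fractions went through an AllPrep kit. The deposited values are log2 expression values per probe set, to 2 decimals, made with Affymetrix Expression Console per the submitters' processing notes. Not given in the sources used here are its summary method, normalization and genome build.

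Groups came from sample titles. Genes were named from the platform annotation, and coding type came from RefSeq (GRCh38.p14) through Entrez identifiers. Each gene was read from its single-symbol probe set of highest mean, and every gene described here had 1 such probe set. Pseudogenes (5) were left out. Log2 values were subtracted to compare polysomal with total RNA, ATO with untreated cells, and the polysomal/total ratios of both states. Genes over 1.5-fold were counted without a test, as groups held 1 sample. Members and gene lists were chosen with earlier results of these data known. All genes past the level filter are named, with the largest differences and list genes past the filter. Steps were tested on simulated data. Python 3.11.15, pandas 2.3.3 and statsmodels 0.14.6 (lowess, span 0.3) were used. The alternatives were centring, quantile normalization, other filters, an offset of 32, the mean over probe sets, 2-fold and the loess trend.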

Additional observations from a re-analysis of the deposited data

Results flagged for a closer look

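In 3 genes the polysomal/total difference had opposite signs in ATO and untreated cells and the ratio differed over 1.5-fold, which with 1 sample per group was not tested. PCDH7, past the level filter, stood at -0.69 in ATO cells and 0.15 in untreated cells, a difference of -0.84, and of 3874 coding genes past the filter 0.155% lay lower. Signs are taken relative to 0, and PCDH7's 0.15 in untreated cells lay below the coding median of 0.19. Its mean, 8.265, is near the filter, and ratio differences over 1.5-fold lower were more frequent among dimmer genes. They made up 0.618% of coding genes past the 75th percentile of level and 2.01% of those past the filter. CDH9, below the filter, stood at -1.34 in ATO cells and 0.34 in untreated cells, and its difference of -1.68 was the lowest of all 7745 coding genes. Its value of 1.37 for ATO minus untreated total RNA was also the highest of those genes, and both rest on the single ATO total sample, the one whose title and source name conflict. CDH10, also below the filter, stood at -0.44 in ATO cells and 0.22 in untreated cells, a difference of -0.66. Among coding genes below the filter, ratio differences over 1.5-fold lower made up 6.02%.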

How the results depend on the processing

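Counts of genes over 1.5-fold, for 5 comparisons and each direction, were recomputed under 8 alternatives. Lower genes for polysomal against total RNA numbered 1 in ATO and 0 in untreated cells as reported. After subtraction of the loess trend they were 3 in ATO and 5 in untreated cells (8.47% and 9.63% of coding genes), by construction a scale on which the coding median is near 0. With no filter (27 genes), 2 were higher and 2 lower for polysomal against total RNA in ATO cells, 1 was higher for ATO against untreated total RNA, and 3 were lower for the ratio difference, all of the additional ones dim genes. The shares of all coding genes were then 9.72% higher, 2.79% lower, 0.917% higher and 4.02% lower in the same order. Filtering at the 75th percentile (4 genes left) or taking 2-fold as threshold gave 0 lower for polysomal against total RNA in ATO cells (4.12% and 0.516% of coding genes) and 0 lower for the ratio difference (0.618% and 0.0516%). With centred samples or quantile normalization, 1 gene was lower for ATO against untreated polysomal RNA (1.08% and 0.80% of coding genes). Every other count was unchanged. Most reported counts were 0, which a stricter filter or a higher threshold cannot raise, so much of this agreement was fixed in advance. Averaging over probe sets could not alter these genes' values, as each has 1 probe set, and only moved the filter (18 genes past it instead of 17). The PCDHB median lay below the coding median for polysomal against total RNA under all 7 settings that change values or genes. Its difference ranged between -0.455 and -0.225 in ATO and between -0.615 and -0.315 in untreated cells. Centring could not change that difference, because it shifts all genes of a sample alike. The values farthest from 0 came from the filter at the 75th percentile, where the only PCDHB genes left were PCDHB16 and PCDHB9. No paired analysis was possible because each group held 1 sample. No sample could be left out for the same reason.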

Other observations

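Of the 5 cadherin-family pseudogenes that were left out, PCDHB17P and PCDHB18P passed the level filter. PCDHB17P had 8.63 in ATO polysomal, 8.41 in untreated polysomal, 8.31 in ATO total and 8.08 in untreated total RNA, and so was higher on polysomes in both states (0.32 in ATO, 0.33 in untreated cells). PCDHB18P had 8.52 in ATO polysomal, 8.48 in untreated polysomal, 8.61 in ATO total and 8.43 in untreated total RNA. PCDHB19P ranged between 6.31 and 6.62, and PCDHGB8P and PCDHGB9P ranged between 3.8 and 4.11 and between 3.67 and 3.97.

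In RefSeq order 2 coding genes of other families lie among the protocadherin clusters. TAF7, a subunit of the general transcription factor TFIID, measured 12.33 in ATO polysomal, 12.03 in untreated polysomal, 12.63 in ATO total and 12.57 in untreated total RNA, with polysomal minus total at -0.30 in ATO and -0.54 in untreated cells. SLC25A2, a mitochondrial ornithine carrier, was below the filter, with values between 3.51 and 3.98.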
